A study of Homo sapiens with 12 samples.

Results

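The 10 MAPK phosphatases measured here are the dual-specificity phosphatases DUSP1, DUSP2, DUSP4, DUSP5, DUSP6, DUSP7, DUSP8, DUSP9, DUSP10 and DUSP16. They were taken by gene symbol from the array's annotation, 10 of 17687 named genes, and each was read by 1 probe set. Their signal was compared between 3 kinds of culture of MCF-10A, an established non-tumorigenic line of human breast epithelium. The first was a co-culture in which HER2 L755S cells were mixed with PIK3CA E545K cells, harvested when droplet digital PCR put the HER2 mutant cells at about 75%. The other two were single cultures, 1 of the HER2 L755S line and 1 of the PIK3CA E545K line, each isogenic with MCF-10A. HER2 L755S is a kinase-domain mutation of the receptor tyrosine kinase HER2, and PIK3CA E545K is a helical-domain mutation of the catalytic subunit of phosphoinositide 3-kinase. All 3 groups were grown in medium with a physiologic level of EGF, with no further treatment, and were harvested after 7 to 14 days. Each group had 4 arrays, extracted in quadruplicate. The labels do not say whether these were separate cultures, so the p-values measure the spread between arrays, which may be technical. Cells with neither mutation were not analysed here, and each mutation was represented by 1 line as far as the labels say, so the mutation, the line and the day of harvest cannot be told apart.

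MAPK phosphatases remove phosphate from both the threonine and the tyrosine of the activation loop of MAP kinases and so switch these kinases off. DUSP6, DUSP7 and DUSP9 are cytoplasmic and prefer ERK; DUSP8, DUSP10 and DUSP16 act mainly on the stress kinases JNK and p38; DUSP1, DUSP2, DUSP4 and DUSP5 are nuclear and inducible, and DUSP5 prefers ERK. Several of them, DUSP6 above all, are transcribed in response to ERK itself and form a negative feedback loop on the pathway that EGF receptors and HER2 feed.

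Promoter sequence was read for 8 of the 10 genes, at 10 annotated starts, from RefSeq on GRCh38.p14. The 250 bases before 1 start from each class are printed here because these 3 genes follow different patterns across the cultures: DUSP1 did not differ detectably between the single cultures, DUSP6 had the largest difference between them, and DUSP16 was higher in the co-culture than in either single culture. All 3 lie on the minus strand and are written 5′ to 3′ along the gene, and capitals mark a match to the cyclic AMP response element TGACGTCA.
DUSP1 (chr5:172771196-172771445): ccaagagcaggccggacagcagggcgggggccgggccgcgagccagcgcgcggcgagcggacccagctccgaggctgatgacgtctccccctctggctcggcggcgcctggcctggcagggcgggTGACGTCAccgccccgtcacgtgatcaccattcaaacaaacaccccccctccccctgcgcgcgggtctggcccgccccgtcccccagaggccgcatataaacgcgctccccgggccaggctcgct
DUSP6 (chr12:89352502-89352751): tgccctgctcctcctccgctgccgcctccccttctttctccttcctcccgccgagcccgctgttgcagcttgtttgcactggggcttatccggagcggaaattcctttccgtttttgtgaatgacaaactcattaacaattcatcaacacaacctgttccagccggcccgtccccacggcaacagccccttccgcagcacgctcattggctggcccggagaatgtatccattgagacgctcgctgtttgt
DUSP16 (chr12:12562864-12563113): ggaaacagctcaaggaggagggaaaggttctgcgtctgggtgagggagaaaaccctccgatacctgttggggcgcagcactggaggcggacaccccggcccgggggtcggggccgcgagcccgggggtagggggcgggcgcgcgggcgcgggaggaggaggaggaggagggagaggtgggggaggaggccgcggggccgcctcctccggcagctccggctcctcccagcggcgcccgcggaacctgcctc
Both strands were searched for 5 motifs: the cyclic AMP response element TGACGTCA, which 1.65% of 35116 annotated promoters of the same length hold, the AP-1 site TGANTCA (6.57%), the ETS core CCGGAA (14.5%), the FOXO site GTAAACA (2.98%) and the CArG box of serum response factor (1.16%). Of the 10 starts, 2 held a match. DUSP1 held 1 cyclic AMP response element, 125 to 118 bases before the start, and DUSP8 held 2, at 118 to 111 and 74 to 67 bases before it. For the other starts, DUSP6 and DUSP16 included, these letters were not in this window.

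The arrays were alike in overall signal, with medians between 6.41 and 6.49 on the log2 scale and correlations of 0.991 to 0.996 between arrays of 1 group. As a measure of background, the 95th percentile of 612 negative control probe sets lay at 6.37 to 6.66 on the co-culture arrays, 6.73 to 7.12 on the HER2 L755S arrays and 6.32 to 6.39 on the PIK3CA E545K arrays. All 5 annotated markers of breast basal epithelium and all 5 of epithelium were above it in every group, and 0 of 4 endothelial markers were. Of the fibroblast markers 2 of 5 were above it, and DCN, a small matrix proteoglycan, averaged 8.03 in the co-culture, 10.70 in HER2 L755S cells and 7.07 in PIK3CA E545K cells. Of the blood markers 2 of 4 (CD68 and CD14) were above it in the co-culture and in PIK3CA E545K cells and 0 of 4 in HER2 L755S cells, while PTPRC, which defines leukocytes, lay below background in all 3 groups. The summed linear signal of the fibroblast markers was 753 to 861 in the co-culture, 1939 to 2503 in HER2 L755S cells and 481 to 681 in PIK3CA E545K cells, and that of the blood markers was 387 to 482 in the co-culture, 118 to 150 in HER2 L755S cells and 359.9 to 465 in PIK3CA E545K cells. These markers moved with the groups, and their part in the results was not tested.

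DUSP6 was at background in HER2 L755S cells and far above it in both other cultures. Its log2 signal was 13.49, 13.48, 12.93 and 13.24 in the co-culture, 5.87, 6.39, 6.47 and 5.61 in HER2 L755S cells, and 14.73, 14.60, 15.06 and 14.57 in PIK3CA E545K cells. The 3 groups did not overlap, and all 4 HER2 L755S arrays lay below the negative control level. DUSP6 was therefore lower in HER2 L755S than in PIK3CA E545K cells by a bound only: PIK3CA E545K cells were at least 219-fold higher. The fitted difference, HER2 L755S minus PIK3CA E545K, was -8.65 ± 0.16 on the log2 scale (SE, n = 4 arrays a group, limma adjusted p = 1.74e-21), where -7.77 is the bound. The co-culture was at least 80.1-fold above HER2 L755S cells (fitted difference 7.20, limma adjusted p = 6.02e-20) and below PIK3CA E545K cells (log2 difference -1.45, limma adjusted p = 5.88e-07).

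DUSP7, a close relative of DUSP6 with the same preference for ERK, followed the same order with a smaller range. Its signal was 10.82, 10.60, 10.57 and 10.48 in the co-culture, 8.19, 8.58, 8.73 and 8.80 in HER2 L755S cells, and 11.33, 11.57, 11.14 and 11.21 in PIK3CA E545K cells. No arrays of different groups overlapped. HER2 L755S minus PIK3CA E545K was -2.73 ± 0.13 (limma adjusted p = 2.31e-14), co-culture minus HER2 L755S was 2.04 (8.67e-12) and co-culture minus PIK3CA E545K was -0.70 (0.000373).

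DUSP9, the third cytoplasmic ERK phosphatase, was near background throughout. It had 7.06, 7.00, 6.95 and 7.01 in the co-culture, 6.85, 6.79, 5.96 and 6.22 in HER2 L755S cells, and 7.28, 7.30, 7.48 and 7.28 in PIK3CA E545K cells. All HER2 L755S arrays lay below the negative control level, so by group means PIK3CA E545K cells were at least 1.30-fold higher. The co-culture signals lay within the range of the HER2 L755S negative control levels (6.73 to 7.12), so no minimum fold is given for the co-culture. The fitted differences were -0.88 for HER2 L755S minus PIK3CA E545K and 0.55 for co-culture minus HER2 L755S (limma adjusted p = 0.000149 and 0.0117). Without HER2 L755S replicate 3 the second of these was 0.39, with an adjusted p of 0.0623. Co-culture minus PIK3CA E545K was -0.33 (95% interval -0.70 to 0.033, limma adjusted p = 0.184), although the 4 arrays of each group did not overlap.

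Among the nuclear, inducible phosphatases, DUSP4 and DUSP5 were both much lower in HER2 L755S than in PIK3CA E545K cells but stood on opposite sides of PIK3CA E545K cells in the co-culture. DUSP4, which dephosphorylates ERK and JNK, had 11.30, 11.57, 11.33 and 11.33 in the co-culture, 7.69, 7.52, 7.65 and 8.43 in HER2 L755S cells, and 11.96, 11.81, 12.33 and 12.21 in PIK3CA E545K cells. The groups did not overlap, with HER2 L755S arrays lowest. HER2 L755S minus PIK3CA E545K was -4.26 ± 0.16 (limma adjusted p = 1.51e-16), and the co-culture was 3.56 above HER2 L755S cells (7.06e-15) and below PIK3CA E545K cells (-0.69, 0.0019).

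DUSP5, the ERK-specific nuclear phosphatase, had 12.45, 12.25, 11.46 and 11.95 in the co-culture, 7.86, 8.22, 8.72 and 8.50 in HER2 L755S cells, and 10.72, 10.83, 11.62 and 11.25 in PIK3CA E545K cells. Co-culture and PIK3CA E545K arrays overlapped, and both groups lay apart from HER2 L755S cells. HER2 L755S minus PIK3CA E545K was -2.78 ± 0.20 (limma adjusted p = 4.36e-11) and co-culture minus HER2 L755S was 3.70 (4.37e-13). In the co-culture DUSP5 was also higher than in PIK3CA E545K cells, by 0.92 (limma adjusted p = 0.00158).

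DUSP2, an inducible nuclear phosphatase best known from lymphocytes, had 8.35, 8.28, 7.83 and 8.29 in the co-culture, 7.13, 6.49, 7.55 and 7.48 in HER2 L755S cells, and 9.36, 9.15, 10.11 and 9.40 in PIK3CA E545K cells. The groups did not overlap, and 3 of the 4 HER2 L755S arrays were above the negative control level. HER2 L755S minus PIK3CA E545K was -2.34 ± 0.21 (limma adjusted p = 1.89e-09), and the co-culture lay between, 1.03 above HER2 L755S cells (0.000317) and below PIK3CA E545K cells (-1.32, 6.24e-05).

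DUSP1, the immediate-early phosphatase that acts on p38, JNK and ERK, was lowest in the co-culture. It had 14.74, 14.68, 14.79 and 14.61 in the co-culture, 15.05, 15.73, 15.69 and 15.43 in HER2 L755S cells, and 15.62, 15.42, 15.55 and 15.34 in PIK3CA E545K cells. The single cultures overlapped, with a difference of -0.0059 (95% interval -0.22 to 0.21, limma adjusted p = 0.966), whose sign turned under other scalings (0.026 with quantile normalization and 0.079 with median centring). All 4 co-culture arrays were below all 8 single-culture arrays (-0.77 against HER2 L755S cells, limma adjusted p = 1.6e-06, and -0.78 against PIK3CA E545K cells, 6.88e-06).

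**Figure D1:**
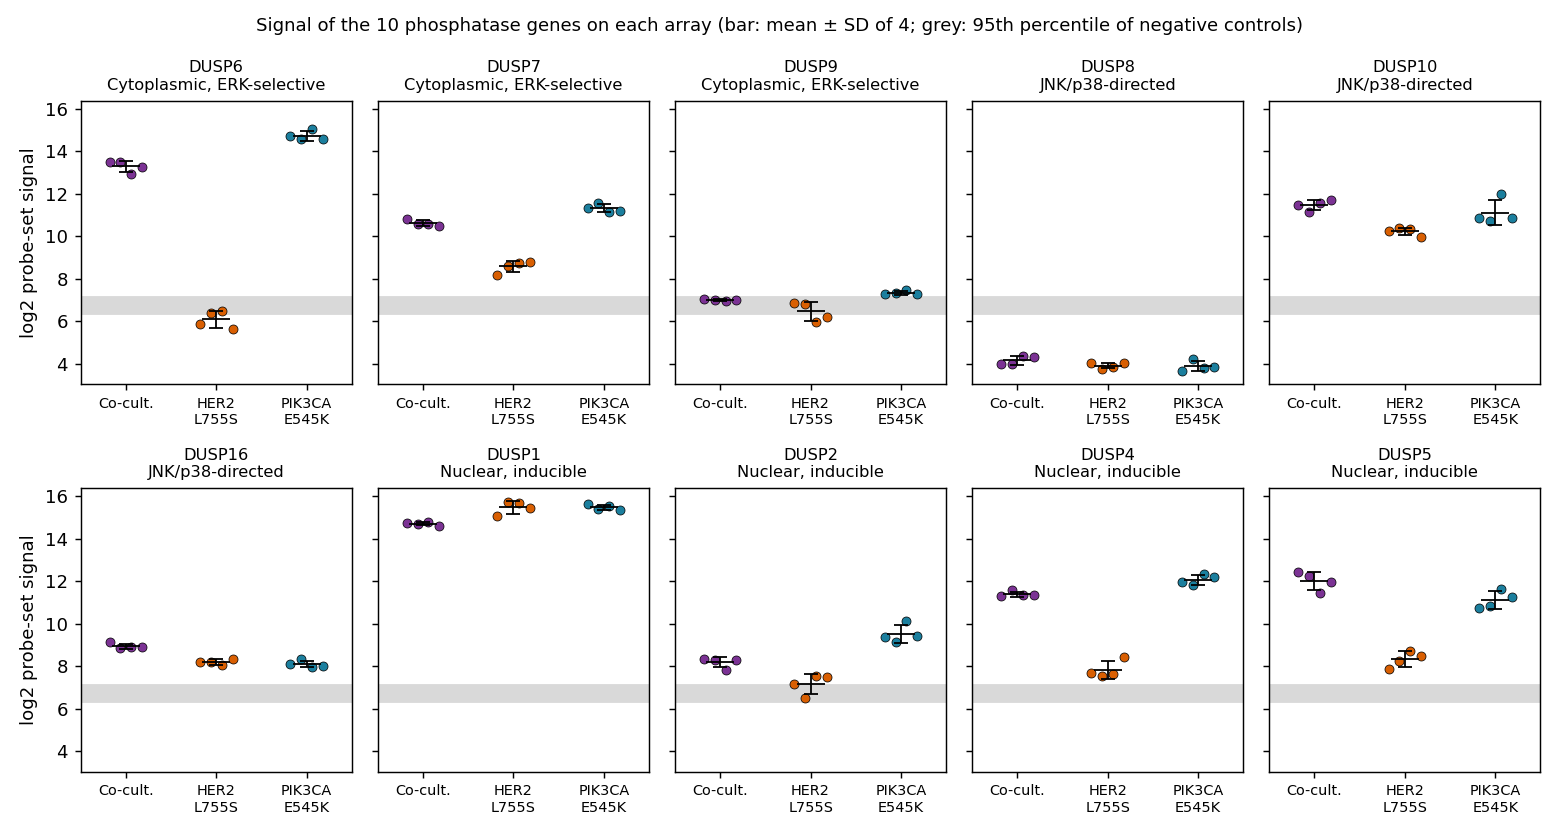
Deposited log2 signal of the 10 MAPK phosphatases, 1 point an array, in the co-culture, HER2 L755S and PIK3CA E545K cultures (4 arrays each), with group means ± SD as bars and the range of the negative control level (6.32 to 7.12) as a grey band. DUSP6 was at 5.61 to 6.47 in HER2 L755S cells, below those arrays' own negative control levels of 6.73 to 7.12, and DUSP8 was under the band in every culture.

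The 2 tested phosphatases directed at JNK and p38 had differences between cultures of at most 1.24 on the log2 scale. This was not particular to them: DUSP9 and DUSP1, of the other classes, stayed under that size (largest -0.88 and -0.78). DUSP10, which acts on JNK and p38, had 11.46, 11.13, 11.55 and 11.71 in the co-culture, 10.24, 10.37, 10.33 and 9.97 in HER2 L755S cells, and 10.86, 10.71, 11.97 and 10.88 in PIK3CA E545K cells. It was lower in HER2 L755S than in PIK3CA E545K cells (-0.88, limma adjusted p = 0.000392) and 1.24 higher in co-cultured cells than in HER2 L755S cells (9.83e-06). Co-culture minus PIK3CA E545K was 0.36 (95% interval -0.039 to 0.76, limma adjusted p = 0.189). That group's replicate 3 stood well above its other arrays, and without it the difference was 0.65 (adjusted p = 0.001).

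DUSP16, a JNK phosphatase, had 9.12, 8.85, 8.89 and 8.88 in the co-culture, 8.21, 8.19, 8.04 and 8.35 in HER2 L755S cells, and 8.11, 8.31, 7.96 and 8.01 in PIK3CA E545K cells. The single cultures overlapped (difference 0.10, 95% interval -0.17 to 0.37, limma adjusted p = 0.54). The co-culture lay above both, by 0.74 over HER2 L755S cells (limma adjusted p = 4.96e-05) and 0.83 over PIK3CA E545K cells (3.94e-05). DUSP8, which acts on JNK and p38 and is known mainly from brain and heart, had 3.96 to 4.37 in the co-culture, 3.73 to 4.03 in HER2 L755S cells and 3.63 to 4.23 in PIK3CA E545K cells, below the negative control level on all 12 arrays. It missed the filter on low signal, so no fold is given for it.

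Of the 9 phosphatases tested, 7 were lower and 0 higher in HER2 L755S than in PIK3CA E545K cells, where 29.5% of all tested genes were lower and 30% higher. Their median difference was -2.34, the value of DUSP2, against 0.052 over all tested genes. Setting DUSP6 and DUSP9 to their bounds could not move this median, since each stays on its own side of it. The 3 ERK-selective phosphatases were all lower (median -2.73), as were 3 of the 4 nuclear ones (median -2.56), while of the 2 tested JNK and p38 phosphatases 1 was lower (median -0.39). In co-culture minus HER2 L755S, 8 of 9 were higher and 1, DUSP1, was lower (median 1.24), against 24.9% and 26% of all genes. In co-culture minus PIK3CA E545K, 2 were higher (DUSP5 and DUSP16) and 5 lower, against 11.1% and 14.6% of all genes. Arrays of the compared groups did not overlap for 7 of 9 phosphatases in HER2 L755S minus PIK3CA E545K, 9 of 9 in co-culture minus HER2 L755S and 7 of 9 in co-culture minus PIK3CA E545K, against 53%, 44.4% and 28.3% of all tested genes. The 3 comparisons share arrays and are not independent of each other. The phosphatases were chosen with earlier results of these data known, so these counts are not an independent test.

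**Figure D2:**
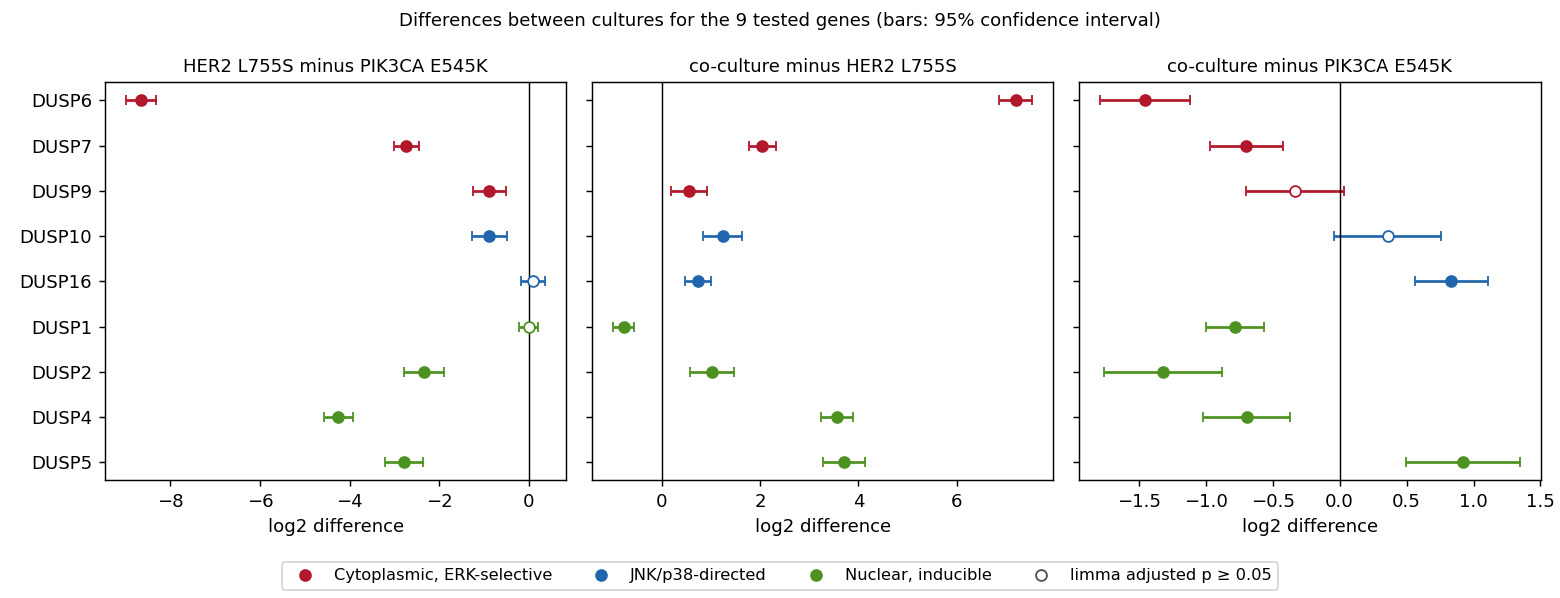
Fitted log2 differences of the 9 tested phosphatases with 95% confidence intervals (n = 4 arrays a group) in each comparison, where open symbols have an adjusted p at or above 0.05. HER2 L755S minus PIK3CA E545K runs from -8.65 for DUSP6, which is below background in HER2 L755S cells, to 0.10 for DUSP16, and DUSP1 alone is negative in co-culture minus HER2 L755S (-0.77).

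Most of the 8 genes listed as transcribed in response to ERK were below background in HER2 L755S cells. All 8 listed were called lower in HER2 L755S than in PIK3CA E545K cells, where 29.5% of all tested genes were. Their fitted median was -5.57. The list was chosen with earlier results of these data known, so its counts in every comparison are not an independent test. In 2 of the 8 genes, CCND1 and PHLDA1, both groups had arrays above the negative control level. In 5 the HER2 L755S signal was below it on every array, so the size of their fitted differences was not measured, and EPHA4 was below it in both groups. With those 5 set to their bound (SPRY2 at 0, since its PIK3CA E545K mean did not reach the HER2 L755S floor) and EPHA4 left out, the median was -3.55. CCND1, which encodes the G1 cyclin D1 and was picked out after its values were seen, averaged 11.96 in the co-culture, 7.50 in HER2 L755S cells and 13.47 in PIK3CA E545K cells, above background in all 3 (HER2 L755S minus PIK3CA E545K -5.97, limma adjusted p = 3.53e-21). SPRY4, an inhibitor of receptor tyrosine kinase signalling, averaged 8.26 in the co-culture, 4.17 in HER2 L755S cells and 10.51 in PIK3CA E545K cells. PIK3CA E545K cells were thus at least 11.7-fold above HER2 L755S cells (fitted difference -6.34, limma adjusted p = 7.47e-18).

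In co-culture minus HER2 L755S, 7 of the 8 ERK-responsive genes were called higher and 0 lower, against 24.9% and 26% of all tested genes, and 6 of the 7 were above background in the co-culture. The fitted median was 3.65, and 2.97 with bounds in place of fitted values below background. In co-culture minus PIK3CA E545K, 6 were called lower and 0 higher, against 14.6% and 11.1% of all tested genes (fitted median -0.91). Of those 6, EPHA4 was below background in both groups. SPRY2 was below it on every co-culture array and above it on only 1 PIK3CA E545K array, so the size of its difference was not measured.

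In the other lists of pathway genes, calls in HER2 L755S minus PIK3CA E545K fell on both sides, where 30% of all tested genes were higher and 29.5% lower. Of 11 tested genes of the ERK cascade, 3 were higher and 5 lower in HER2 L755S than in PIK3CA E545K cells (median -0.19). The largest difference was in MAP2K1, the kinase that phosphorylates ERK, with 10.02 in HER2 L755S cells and 11.98 in PIK3CA E545K cells (-1.96, limma adjusted p = 5.82e-14). SOS1, the exchange factor that activates RAS, was 1.00 higher (2.9e-08). The 3 higher calls became 1 with no trend of the spread with signal, without HER2 L755S replicate 2 or replicate 4, or without PIK3CA E545K replicate 1. Of 14 tested genes of the JNK and p38 cascades, 5 were higher and 5 lower (median 0.083), led by the scaffold MAPK8IP3 (1.46) and the stress kinase MAP3K5 (-1.32). Among the 14, 2 were below the negative control level in both single cultures, and the other 12 held 4 higher and 5 lower calls. MAP3K5 was above that level on only 1 of 4 HER2 L755S arrays. Immediate-early genes split into 2 higher and 5 lower of 11 (median -0.47). Unlike most of the ERK-responsive list, all 11 had arrays above the negative control level in both single cultures. EGR3, a zinc finger transcription factor, was at 1.04 (SE 0.31, limma adjusted p = 0.00645). FOSB, an AP-1 subunit, was at -1.20 (SE 0.41, limma adjusted p = 0.0147). The SD between HER2 L755S arrays was 1.06 for EGR3 and 1.49 for FOSB, against 0.36 and 0.23 in PIK3CA E545K cells. With a robust estimate of the spread the 2 higher calls became 1. The 5 lower calls became 0 with that estimate, 1 with no trend of the spread with signal, 2 with quantile normalization or median centring, 1 without HER2 L755S replicate 1, 3 without PIK3CA E545K replicate 1 or replicate 2, and 2 without PIK3CA E545K replicate 3. Atypical dual-specificity phosphatases, which lack the MAP kinase binding domain, had 4 higher and 3 lower of 11 (fitted median 0.18). DUSP19, with the largest fitted value of those called higher, was below the negative control level in all 3 groups. Of the 11, 4 were below that level in both single cultures. The other 7 held 2 higher and 3 lower calls with a median of -0.059, from -0.64 for DUSP23 to 1.10 for DUSP3. The 4 higher calls became 2 with a filter at the 50th percentile, and the 3 lower calls became 1 with median centring or without HER2 L755S replicate 1. Of the tyrosine phosphatases with a MAP kinase docking motif, 1 of 3 was tested, with no call, and it was below background in both single cultures.

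**Figure D3:**
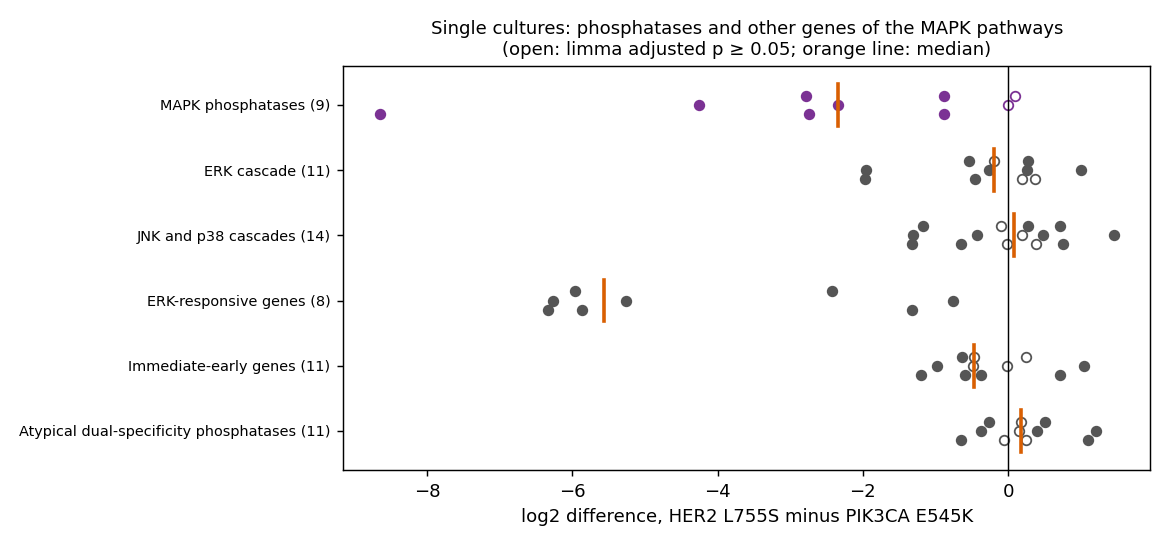
Fitted log2 difference, HER2 L755S minus PIK3CA E545K, of each tested MAPK phosphatase and each tested gene of the pathway lists, where orange lines are medians and open symbols have an adjusted p at or above 0.05. The 8 ERK-responsive genes lie below 0 (fitted median -5.57), but 6 of them were below the negative control level in HER2 L755S cells, so that their distance from 0 is not measured. Genes of the ERK cascade (median -0.19) and the JNK and p38 cascades (median 0.083) lie on both sides of it. Of the JNK and p38 genes, 2 were below the negative control level in both single cultures.

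The 5 genes whose profile over the 12 arrays lay closest to that of DUSP6, after each gene's mean was subtracted, were ABCC3 (root mean square distance 0.55), TSPAN1 (0.58), NT5E (0.64), LIPG (0.67) and THBS1 (0.79), where the median over all tested genes was 3.82. ABCC3 is an efflux transporter, NT5E makes extracellular adenosine and THBS1 is a matricellular protein. All 5 genes, like DUSP6, were below background on the 4 HER2 L755S arrays, so the distances and their order rest in part on values without a measured level. ABCC3 averaged 12.43 in the co-culture, 4.81 in HER2 L755S cells and 13.09 in PIK3CA E545K cells, which were at least 70.0-fold above HER2 L755S cells.

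In the co-culture, a signal between those of the single cultures would follow from mixing alone. The co-culture was therefore set against a blend of 75% of the mean HER2 L755S signal and 25% of the mean PIK3CA E545K signal on the linear scale, which assumes that both kinds of cell hold equal RNA. In such a mixture fewer cells of a type and less RNA per cell cannot be told apart. Over the 2713 genes that differed between the single cultures by at least 1 on the log2 scale and passed the test, the median co-culture signal corresponded to 69.8% PIK3CA E545K signal (quartiles 49.2% and 87.2%), against 25% of cells. A second blend of 30% HER2 L755S and 70% PIK3CA E545K signal, chosen after seeing this value, is given beside the first.

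Against the first blend 6 of 9 phosphatases were higher and 1 lower, where 18.5% and 22.3% of all tested genes were. Against the second 3 were higher and 3 lower, where 5.62% and 13.1% of all tested genes were. DUSP5, DUSP10 and DUSP16 were higher than either blend, and DUSP1 was lower than either. DUSP5 was 2.40 above the first (limma adjusted p = 4.3e-10) and 1.35 above the second (2.92e-05). DUSP16 was 0.76 above the first (1.64e-05) and 0.80 above the second (2.08e-05), and DUSP10 was 0.96 (7.01e-05) and 0.57 (0.0255) above them. DUSP1 differed by -0.77 (7.51e-07) and -0.78 (2.05e-06).

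For the remaining phosphatases the direction depended on the blend. DUSP6 was 0.54 above the first (limma adjusted p = 0.0102), 0.06 above a blend with 65% HER2 L755S signal (0.832), and -0.94 against the second (0.000194). DUSP4 was 1.10 above the first (2.67e-06) and at -0.21 against the second (0.403), and DUSP7 was at 0.77 (1.44e-05) and -0.27 (0.161). DUSP2 was at 0.01 (0.97) against the first and -0.92 against the second (0.00251), and DUSP9 at 0.27 (0.168) and -0.12 (0.691). Expressed as a share of PIK3CA E545K signal, the co-culture stood at 25.4% for DUSP2, 36.4% for DUSP6, 55.0% for DUSP7 and 59.7% for DUSP4. DUSP5 stood at 205%, beyond the PIK3CA E545K culture itself, with single co-culture arrays between 133% and 279%.

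**Figure D4:**
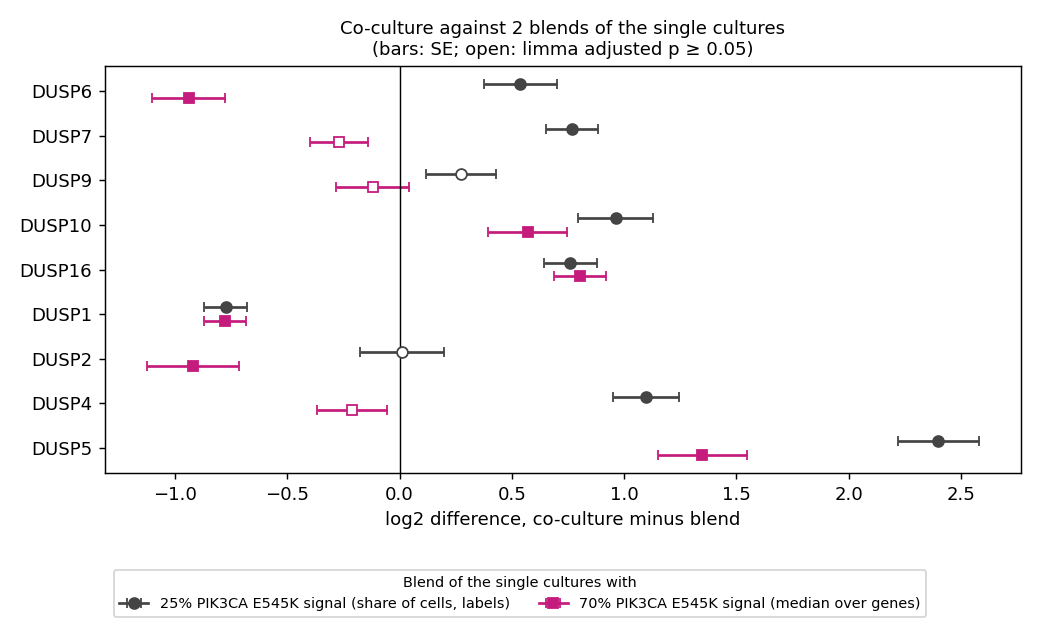
Co-culture mean log2 signal of the tested phosphatases minus the blend of single-culture signals, with standard errors (n = 4 arrays a group), for the blend by share of cells and the blend by share of signal. DUSP5, DUSP10 and DUSP16 lie above 0 against both (DUSP5 at 2.40 and 1.35) and DUSP1 lies below 0 against both (-0.77 and -0.78).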

How the data were processed

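Total RNA, 4 extracts for each of 3 kinds of culture, was hybridised to 12 1-colour GeneChip arrays. The values used are log2 probe-set signals deposited by the authors, for which the submitters' processing notes name Transcriptome Analysis Console. Its version and normalization are not given in the sources used here. Of 24351 probe sets, 17709 were named for 1 gene, and the brightest was kept for 20 genes with several.

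Genes above the 30th percentile of named probe sets on at least 4 arrays (12758) were fitted with limma 3.58.1 in R 4.3.3, with 3 groups of 4 arrays, a mean-variance trend, two-sided tests and Benjamini-Hochberg adjustment over all tested genes (threshold 0.05). Differences from a blend used delta-method standard errors. The procedure was tested on simulated data. A signal was called below background under the 95th percentile of negative control probe sets, and a fold against such a group is a bound from that level. The number of arrays limits the precision.

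The members and gene lists were chosen with earlier results of these data known. Named are all members, the 5 genes nearest to DUSP6, and the largest called difference of each list in each direction. A few list genes are also named for their level against background. List genes without an annotated probe set were not analysed here. Alternatives were other normalizations, filters, spread estimates, blends, class assignments, a replicate block and leaving out each array.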

Additional observations from a re-analysis of the deposited data

Results flagged for a closer look

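In 5 of 30 sets of 4 arrays (10 phosphatases in 3 groups), 1 array was flagged as apart from the rest. A flag means that the gap to the next array was large against the range of the 4 arrays. The gap itself could be small where the other arrays lay close together. The nominal rate of such flags is about 1 in 20 for independent sets. The 30 sets come from the same 12 arrays and are not independent, so the 5 flags cannot be read as an excess over that rate. DUSP10 was highest in PIK3CA E545K replicate 3, at 11.97 against 10.88 for the next array. The same array was highest for DUSP9, at 7.48 against 7.30. It was the highest of its group for 6 of the 10 phosphatases and the lowest for 2. In the co-culture, DUSP2 was lowest in replicate 3, at 7.83 against 8.28. DUSP4 was highest in co-culture replicate 2, at 11.57 against 11.33, and DUSP16 in co-culture replicate 1, at 9.12 against 8.89. Replicate 1 was the highest co-culture array for 6 of the 10 and the lowest for 2. The 10 include DUSP8, which was below background on every array. No share over all genes is given, so these counts show nothing particular to the phosphatases.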

How the results depend on the processing

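Of 774 recomputed differences of single phosphatases, 751 kept their direction and their side of the threshold. Part of them could not change direction. Other spread estimates, filters and a replicate block left the fitted difference as it was. So did the mean of probe sets, since each phosphatase had 1 probe set. The difference of DUSP1 between the single cultures changed sign with quantile normalization (0.026), with median centring (0.079) and on leaving out single arrays (-0.091 to 0.13). DUSP2 against the 75% blend changed sign with median centring (-0.014), with 65% HER2 L755S signal (-0.25) and on leaving out single arrays (-0.076 to 0.14). The blend by share of signal, chosen after seeing the data, turned DUSP2 to -0.92, DUSP4 to -0.21, DUSP6 to -0.94, DUSP7 to -0.27 and DUSP9 to -0.12. It turned the median of the nuclear class to -0.49 and of the ERK-selective class to -0.27, and called 3 phosphatases higher and 3 lower and 717 genes higher and 1670 lower. With 65% HER2 L755S signal the ERK-selective median was 0.18; with 85% it was 1.15 and the nuclear median 1.00. Counting DUSP5 as ERK-selective gave medians of 1.03 (nuclear) and 2.87 (ERK-selective) for co-culture minus HER2 L755S, and 0.012 (nuclear) against the blend. Same-numbered arrays did not deviate together (correlations -0.034 to 0.060). These correlations cannot show whether such arrays were cultured or processed together, and the labels do not say. With a replicate block 7 of 9 phosphatases stayed lower in HER2 L755S than in PIK3CA E545K cells, and no call on a phosphatase changed. The cause of these changes was not tested. Signal near background limits DUSP6 in HER2 L755S cells and DUSP8 and DUSP9 throughout. It also limits DUSP2 in HER2 L755S cells, where 1 array was below its negative control level (6.49 against 7.12).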
